A study of Mus musculus with 27 samples.

Results

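The fatty acid elongases and desaturases described here are 9 genes, namely the elongases Elovl1, Elovl2, Elovl3, Elovl5 and Elovl6 and the desaturases Scd1, Scd2, Fads1 and Fads2. They were chosen by name from the 18820 genes that a probe set of the liver arrays names singly, and each was measured by 1 probe set. RNA was taken from whole livers of 27 male C57BL/6J mice aged 12 months, which had received their diet from the age of 9 weeks. The 7 INT-fed mice alternated weekly between the medium fat diet ad libitum and a 40% calorie restriction, and were sacrificed in an ad libitum week. The 6 CR-fed mice were held at a continuous restriction on AIN-93W-CR, with portions set at 30% below the energy intake of the control group. The intake that the paper measured for the CR group was further below control than that. The 7 MF-fed mice ate the medium fat diet, AIN-93W-MF with 25% of its energy from fat, and the 7 C-fed mice ate the control diet AIN-93W, both ad libitum. All 27 mice were mock gavaged with 0.5% carboxymethyl cellulose after a 4 h fast and fasted for a further 6 h. No liver was therefore sampled in the fed state. CR-fed mice received 1 portion each day at a set hour, whereas the other groups had food ad libitum before the fast. The time since the last meal may thus differ between CR and the other diets, and it cannot be told apart from the restriction. The control diet and AIN-93W-CR drew a smaller share of their energy from fat than the medium fat diet. CR against MF and INT against CR therefore also differ in dietary fat, which cannot be told apart from the restriction in them.

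Fatty acids made or eaten are lengthened in the endoplasmic reticulum by adding carbon pairs from malonyl-CoA, and the elongase of the ELOVL family that carries out the first, rate-limiting condensation decides which chains are extended. Desaturases place double bonds: the SCD enzymes make oleic and palmitoleic acid from saturated chains, while FADS2 and FADS1 act in turn with ELOVL5 and ELOVL2 to turn linoleic and alpha-linolenic acid into arachidonic and docosahexaenoic acid. In liver many of these genes are known targets of SREBP-1c and of other factors that sense insulin, sterols and fatty acids.

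Promoter windows from 250 bases before to 50 bases after the start of transcription were listed in RefSeq (GRCm38.p6) for 5 of the 9 genes, as 7 windows. Those of Elovl6, whose level differed between diets, and of Elovl5 and Fads2, whose levels varied together between mice, are shown 5′ to 3′ along each gene's own strand, with motif matches in capitals. The Elovl6 window lies at chr3:129532136-129532435 on the plus strand, the Elovl5 window at chr9:77917115-77917414 on the plus strand and the Fads2 window at chr19:10101454-10101753 on the minus strand.
Elovl6: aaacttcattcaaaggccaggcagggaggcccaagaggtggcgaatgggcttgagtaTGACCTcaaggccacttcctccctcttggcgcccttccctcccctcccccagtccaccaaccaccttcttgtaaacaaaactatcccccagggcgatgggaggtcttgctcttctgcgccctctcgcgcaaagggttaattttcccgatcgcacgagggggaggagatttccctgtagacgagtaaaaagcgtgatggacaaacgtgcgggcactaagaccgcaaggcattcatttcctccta
Elovl5: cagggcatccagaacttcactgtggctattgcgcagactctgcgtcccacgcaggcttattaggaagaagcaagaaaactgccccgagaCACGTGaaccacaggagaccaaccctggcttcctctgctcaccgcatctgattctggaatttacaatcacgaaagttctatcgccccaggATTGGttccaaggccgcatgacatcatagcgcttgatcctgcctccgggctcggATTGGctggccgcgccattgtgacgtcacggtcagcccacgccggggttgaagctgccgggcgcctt
Fads2: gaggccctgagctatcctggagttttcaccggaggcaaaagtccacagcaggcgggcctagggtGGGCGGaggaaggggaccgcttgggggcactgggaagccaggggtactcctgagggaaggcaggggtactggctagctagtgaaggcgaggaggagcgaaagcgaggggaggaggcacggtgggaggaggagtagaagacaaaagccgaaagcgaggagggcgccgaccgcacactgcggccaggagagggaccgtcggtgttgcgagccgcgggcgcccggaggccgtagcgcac
The capitals in Elovl6 mark 1 match to AGGTCA, the core element of nuclear receptor sites, which 16.3% of 32851 mouse promoter windows of this length hold on either strand. Those in Elovl5 mark 1 E-box, CACGTG, and 2 CCAAT boxes, read as ATTGG, which 7.15% and 37.4% of all windows hold. The capitals in Fads2 mark 1 GC box, GGGCGG, held by 35.7% of windows. The matches in these 3 windows did not overlap one another. Searches on both strands for a sterol regulatory element written TCACNCCAC (1.24% of all windows), a TATA box written TATAAA (13.6%) and a STAT5 site written TTCNNNGAA (8.3%) gave no match in any of the 7 windows of the members, which says only that these letters are not there.

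The 27 arrays had medians between 5.21 and 5.27 on the log2 scale and pairwise correlations from 0.982 to 0.992. The hepatocyte gene Alb lay between 13.49 and 13.74 in all livers, whereas of 5 adipocyte genes with a value Adipoq and Lep were above an intensity of 20 on 0 of 27 arrays, Retn on 16, and Plin1 and Fabp4 on all 27 (Fabp4 6.04 to 7.78 in log2). None of the 3 that were tested passed between any of the diets. Livers numbered 1 to 4 in each diet and those numbered 5 to 7 were also compared separately and are called array sets here, although the labels name no batch. The interquartile range of the array values averaged 3.63 over the 16 arrays of livers 1 to 4 (3.59 to 3.70) and 3.72 over the 11 of livers 5 to 7 (3.64 to 3.76), so the ranges overlapped, and both sets hold every diet. All 9 genes exceeded the intensity minimum, 20 on at least 5 arrays, and were among the 13603 genes tested. In bulk liver RNA, a change in the number of cells of a type and a change in RNA per cell cannot be told apart. Scd1 and Scd2, and Fads1, Fads2 and Fads3, are close relatives on chromosome 19, where the Fads genes are consecutive coding genes and Scd4 lies between Scd2 and Scd1, and how far their probe sets share signal was not tested.

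The elongases Elovl3 and Elovl6 differed by diet and did so in opposite directions, with CR-fed livers apart from all other livers. Of the 9 genes, 2 passed limma's F test across the 4 diets (adjusted p under 0.05 over all genes tested), Elovl3 with an adjusted p of 8.84e-08 and Elovl6 with 1.57e-06. The share of all tested genes that passed it was 16.7%. In INT against CR 4 of the 9 genes passed, against 15.0% of all genes; 1 was higher and 3 were lower in INT, against 8.37% and 6.62%. In CR against MF 3 of the 9 passed, against 19.8% of all genes, with 2 higher and 1 lower in CR, against 8.57% and 11.2%. In CR against C 2 of the 9 passed, against 17.5%, with 1 higher and 1 lower in CR, against 8.46% and 9.05%. None of the 9 passed in INT against MF, INT against C or MF against C, comparisons in which limma called 0 of 13603 genes (0%). At an unadjusted p under 0.05, those 3 comparisons held 1479, 922 and 464 genes, among which were 1, 2 and 0 of the 9. The comparisons share livers, so their counts do not stand for separate experiments. The 9 genes were chosen with earlier results of these data known, so the counts and shares are descriptive.

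**Figure D1:**
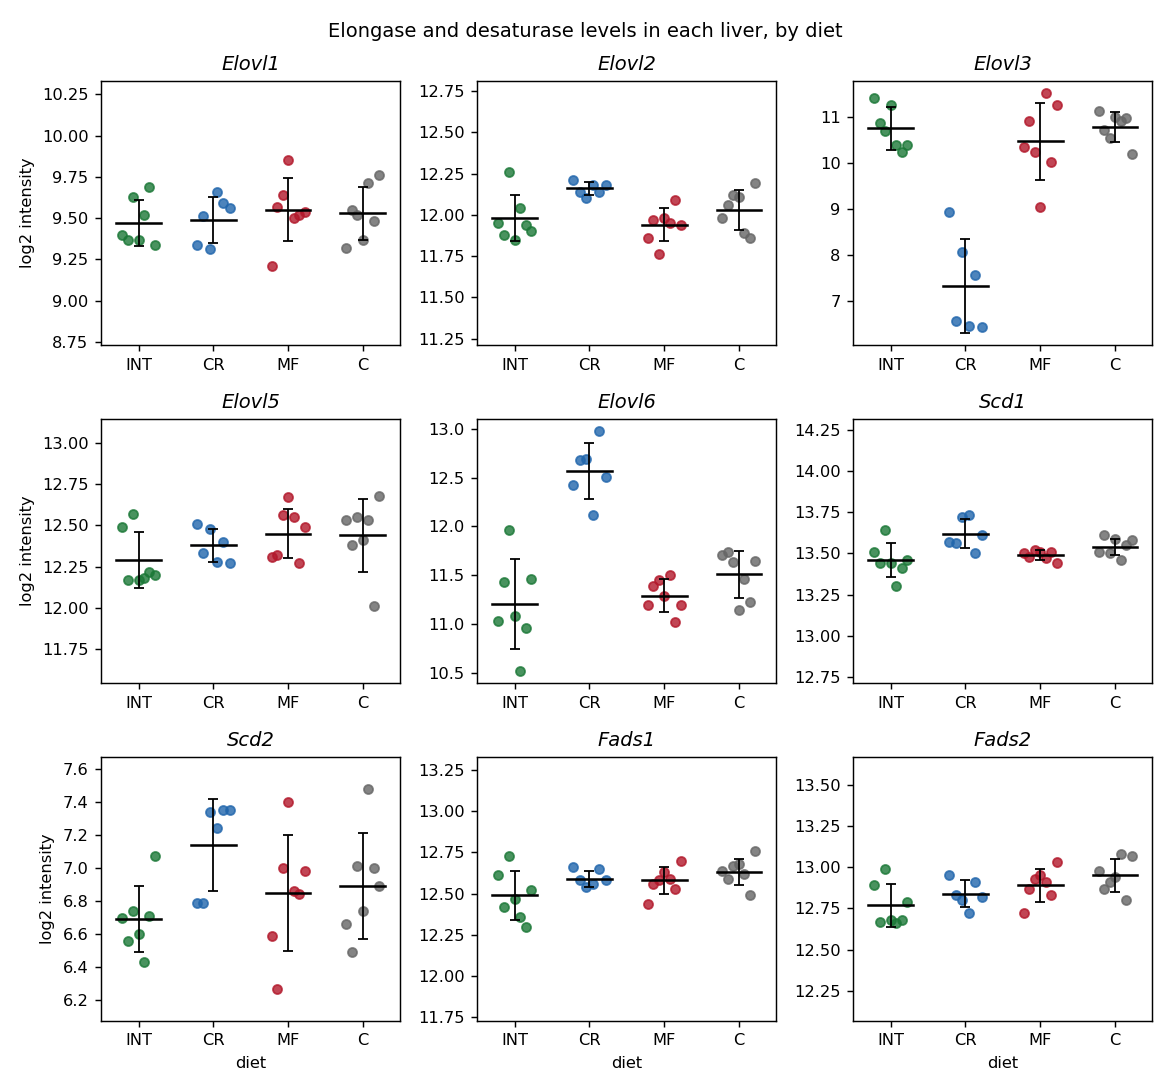
Log2 probe set intensity of the 9 genes in each of the 27 livers (points), by diet; the line and bars give the mean ± SD over 7 INT-fed, 6 CR-fed, 7 MF-fed and 7 C-fed mice, and each panel has its own vertical scale. Elovl3 lies lower and Elovl6 higher in all 6 CR-fed livers than in any other liver, while the other genes overlap between diets except Elovl2 between CR and MF.

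Elovl3, which elongates saturated and monounsaturated chains and is known in mouse liver for higher levels in males and a daily rhythm, showed the widest spread of the members. Its intensity was 1211 to 2744 in INT-fed livers (median 1653) and 86.4 to 484 in CR-fed livers (median 140). It was 526 to 2937 in MF-fed livers (median 1298) and 1179 to 2227 in C-fed livers (median 1941). Every CR-fed liver was therefore below every liver of the other diets, although the highest CR-fed liver and the lowest MF-fed liver were close. Means were 10.75 ± 0.46 in INT, 7.32 ± 1.03 in CR, 10.47 ± 0.84 in MF and 10.78 ± 0.32 in C (log2 intensity, SD, n = 7, 6, 7 and 7). INT-fed livers thus had 10.7 times the Elovl3 level of CR-fed livers (log2 fold change 3.43, SE 0.36, adjusted p = 1.42e-07). In CR-fed livers it was 8.87-fold lower than in MF-fed livers (log2 fold change −3.15, SE 0.36, adjusted p = 5.23e-07). Against C-fed livers the log2 fold change in CR was −3.46 (SE 0.36, adjusted p = 1.31e-07).

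The ranges of Elovl3 and Elovl6 did not overlap in any of the 3 comparisons with CR, nor did those of Elovl2 in CR against MF. Of all genes, 6.43% did not overlap in INT against CR, 7.02% in CR against MF and 6.70% in CR against C. In INT against MF, INT against C and MF against C the ranges of all 9 members overlapped, and those of 0.103%, 0.257% and 0.0588% of all genes did not. Within livers 1 to 4 and within livers 5 to 7, the Elovl3 difference of INT from CR was 3.57 and 3.35, that of CR from MF −2.64 and −3.94, and that of CR from C −3.35 and −3.71, all with an adjusted p under 0.05. Mice on the same diet also differed: the highest Elovl3 intensity was 5.60 times the lowest among CR-fed mice and 5.58 times among MF-fed mice, but 2.27 times among INT-fed and 1.89 times among C-fed mice. The order of the means was C, INT, MF and CR from high to low, and of these neighbours only MF and CR differed. For INT against C the interval of the difference ran from −0.74 to 0.68, and for INT against MF from −0.44 to 0.99, so differences of these sizes remain within the intervals.

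The genes whose levels followed Elovl3 most closely over the 27 livers were Slc27a2, an acyl-CoA synthetase for very long chains (r = 0.96, and 0.81 for deviations from diet means), Chrna2, an acetylcholine receptor subunit (0.95 and 0.75) and Mup20, a major urinary protein known as darcin (0.94 and 0.62). These correlations are descriptive, and the first of each pair contains the difference between CR and the other diets.

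Elovl6, the elongase that turns palmitoyl-CoA into stearoyl-CoA, was high in CR-fed livers. Its intensity was 1472 to 3987 in INT-fed livers (median 2170) and 4464 to 8066 in CR-fed livers (median 6182). It was 2079 to 2901 in MF-fed livers (median 2496) and 2260 to 3419 in C-fed livers (median 3190). All 6 CR-fed livers were above every other liver, and on the log2 scale the INT-fed livers had the largest SD. Means were 11.21 ± 0.46 in INT, 12.57 ± 0.29 in CR, 11.29 ± 0.17 in MF and 11.51 ± 0.24 in C (log2 intensity, SD). Elovl6 was 2.57-fold lower in INT-fed than in CR-fed livers (log2 fold change −1.36, SE 0.16, adjusted p = 9.1e-07). It was 2.42-fold higher in CR-fed than in MF-fed livers (log2 fold change 1.27, SE 0.16, adjusted p = 2.17e-06) and 2.08-fold higher than in C-fed livers (1.05, SE 0.16, adjusted p = 3.14e-05).

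Within livers 1 to 4 and livers 5 to 7, the log2 difference in Elovl6 was −1.10 and −1.76 for INT against CR, 1.15 and 1.50 for CR against MF, and 0.92 and 1.29 for CR against C, all with an adjusted p under 0.05. The order of the means was CR, C, MF and INT, and only CR and C differed among neighbours. INT-fed livers were 0.30 below C-fed livers (95% interval −0.62 to 0.01, adjusted p = 0.737), with 4 of 7 INT-fed livers below every C-fed liver and 1 above them all. The genes that followed Elovl6 most closely were Acaca, acetyl-CoA carboxylase (r = 0.97 over 27 livers and 0.88 within diets), Fasn, fatty acid synthase (0.96 and 0.84) and Acly, ATP citrate lyase (0.94 and 0.83). The promoter window of Elovl6 printed above holds no CCAAT box, E-box or GC box of the letters searched.

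**Figure D2:**
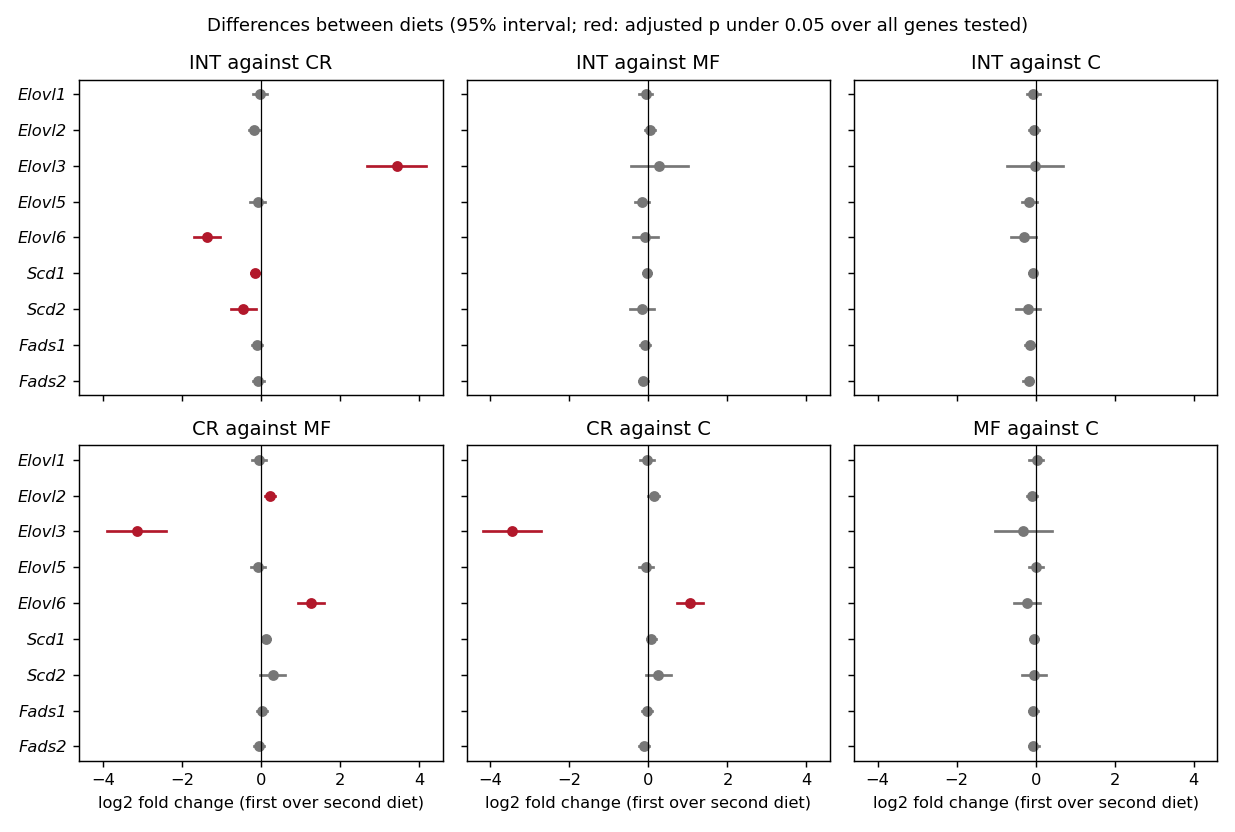
Log2 fold change of each gene in the 6 comparisons, first diet over second, with its 95% interval from limma on 27 livers; red marks an adjusted p under 0.05 over 13603 genes. Elovl3 and Elovl6 carry the large differences, from −3.46 to 3.43 and from −1.36 to 1.27, whereas the other 7 genes stay between −0.45 and 0.30.

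Among the elongases of polyunsaturated chains, Elovl2, which acts on the longest precursors of docosahexaenoic acid, differed between CR and MF. Its intensity was 3701 to 4903 in INT-fed livers (median 3931) and 4384 to 4732 in CR-fed livers (median 4576). It was 3480 to 4354 in MF-fed livers (median 3948) and 3730 to 4657 in C-fed livers (median 4255). The CR-fed livers lay in a narrow band, above all MF-fed livers but overlapping the ranges of INT and C. Elovl2 was 1.17-fold higher in CR-fed than in MF-fed livers (log2 fold change 0.22, SE 0.06, adjusted p = 0.0146). The difference was 0.26 within livers 1 to 4 (adjusted p = 0.0489) and 0.17 within livers 5 to 7, where it did not pass (adjusted p = 0.52). In INT-fed livers Elovl2 was −0.18 from CR (SE 0.06, adjusted p = 0.0561) and below every CR-fed liver in 6 of 7 mice, which did not pass the threshold here but passed in 7 of the 15 other settings. No neighbours in the order CR, C, INT and MF differed. Its closest genes over the 27 livers were Rdh11, a retinol dehydrogenase (r = 0.81, and 0.70 within diets), Sc5d, a sterol desaturase of cholesterol synthesis (0.78 and 0.66) and Ropn1l (0.78 and 0.61).

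Elovl5, which elongates the products of FADS2, gave 4604 to 6095 in INT-fed livers (median 4701) and 4939 to 5830 in CR-fed livers (median 5280). It gave 4950 to 6510 in MF-fed livers (median 5758) and 4114 to 6581 in C-fed livers (median 5907). The lowest value was that of C-fed replicate 6, and 5 of 7 INT-fed livers were below every CR-fed and every MF-fed liver. The largest of the 6 differences was INT against MF at −0.17 (95% interval −0.35 to 0.01, adjusted p = 0.487), and none passed.

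Elovl1, the elongase that supplies very long saturated chains for sphingolipids, varied least with diet. Its means were 9.47 ± 0.14 in INT, 9.49 ± 0.14 in CR, 9.55 ± 0.19 in MF and 9.53 ± 0.16 in C (log2 intensity, SD). Its 6 differences were all between −0.07 and 0.02, with intervals that reached no further than −0.25 and 0.19. For Elovl1 and Elovl5 the order of the means was MF, C, CR and INT, and no neighbours differed.

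Of the desaturases of saturated chains, Scd1 is the main form of adult mouse liver and makes oleic and palmitoleic acid. Its intensity was 10064 to 12789 in INT-fed livers (median 11152) and 11584 to 13629 in CR-fed livers (median 12352). It was 11138 to 11709 in MF-fed livers (median 11611) and 11306 to 12490 in C-fed livers (median 11999). All 27 values fell within 0.44 on the log2 scale, with 5 of 7 INT-fed livers below every CR-fed liver and the MF-fed livers close together. These values, 13.30 to 13.73 in log2, lie near the top of the arrays' scale, on which the highest value of any gene was 14.24. Whether the scale narrows differences there was not tested. Scd1 was 1.12-fold lower in INT-fed than in CR-fed livers (log2 fold change −0.16, SE 0.05, adjusted p = 0.0311). The call was lost without CR replicate 3, CR replicate 4, INT replicate 5 or INT replicate 6 (adjusted p up to 0.0888), and within livers 1 to 4 and 5 to 7 the difference was −0.14 and −0.17 without passing (adjusted p = 0.25 and 0.392). In CR against MF it was 0.13 (SE 0.05, adjusted p = 0.0785).

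Scd2 catalyses the same reaction and is known mainly from brain and newborn tissues. It was the dimmest member, with 37.1% of genes above it, but exceeded an intensity of 20 on all 27 arrays. Its intensity was 86.5 to 135 in INT-fed livers (median 104) and 110 to 164 in CR-fed livers (median 157). It was 76.9 to 169 in MF-fed livers (median 116) and 90.0 to 178 in C-fed livers (median 119). The CR-fed livers split into 2 at 110 and 111 and 4 at 151 to 164, and the ranges of all diets overlapped. Scd2 was 1.37-fold lower in INT-fed than in CR-fed livers (log2 fold change −0.45, SE 0.15, adjusted p = 0.0445). This call was lost in 11 of 27 fits that left out 1 liver, namely CR replicate 3, 4, 5 or 6, any of INT replicates 1 to 6 or MF replicate 5 (adjusted p up to 0.0996). Within livers 1 to 4 it was −0.39 and within livers 5 to 7 −0.61, neither passing (adjusted p = 0.266 and 0.14). Macrophage genes shared this direction: 6 of 8 were lower in INT-fed than in CR-fed livers and none was higher, against 6.62% of all genes lower. Among the 6 were Csf1r (log2 fold change −0.51, SE 0.12) and Clec4f (−0.44, SE 0.10). The summed intensity of the 8 was 2853 to 4295 in INT-fed, 4406 to 6710 in CR-fed, 3196 to 5126 in MF-fed and 3824 to 5932 in C-fed livers, and its part in the Scd2 difference was not tested. Scd1 and Scd2 both had their means in the order CR, C, MF and INT, with no neighbours that differed.

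Over the 27 livers Scd1 was followed most closely by Crem, a cAMP-responsive transcription factor (r = 0.73, and 0.58 within diets), Hamp2, a hepcidin (0.71 and 0.44) and Gtdc1, a glycosyltransferase-like gene (0.70 and 0.45), and Scd2 by Plp2 (0.80 and 0.76), Ppif, the mitochondrial cyclophilin (0.78 and 0.71), and Rras, a small GTPase (0.78 and 0.72).

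The desaturases of polyunsaturated chains passed in no comparison. Fads2, which introduces the first double bond into linoleic and alpha-linolenic acid, gave 6488 to 8122 in INT-fed livers (median 6582) and 6729 to 7916 in CR-fed livers (median 7256). It gave 6761 to 8385 in MF-fed livers (median 7703) and 7115 to 8655 in C-fed livers (median 7884). Its lowest mean was in INT, where 5 of 7 livers were below every C-fed liver. The difference of INT from C was −0.18 (95% interval −0.31 to −0.06, adjusted p = 0.544).

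Fads1, which acts after ELOVL5 to make arachidonic and eicosapentaenoic acid, gave 5046 to 6779 in INT-fed livers (median 5692) and 5942 to 6484 in CR-fed livers (median 6117). It gave 5570 to 6658 in MF-fed livers (median 6111) and 5736 to 6914 in C-fed livers (median 6372). INT-fed livers again held the lowest values, 4 of 7 lying below every C-fed liver, but INT-fed replicate 3 was above all CR-fed and MF-fed livers. INT differed from C by −0.15 (95% interval −0.26 to −0.03, adjusted p = 0.646). The means of Fads2 ran C, MF, CR and INT and those of Fads1 C, CR, MF and INT, and no neighbours differed for either gene.

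Beyond the diets, Fads1, Fads2 and Elovl5 varied together from mouse to mouse. Each gene's deviation from its diet mean was correlated over the 27 livers with that of each other member, which made 36 pairs, and p-values came from 100000 permutations of mice within diets. Of these, 4 pairs passed after adjustment over the 36. Fads1 and Fads2 had r = 0.88 (adjusted permutation p = 0.00018) and rho = 0.88 (adjusted permutation p = 0.00036). Their unadjusted p, 1e-05 for both measures, was the smallest these permutations can give. Without the 2 livers farthest from the median r was 0.87, and within diets and array sets it was 0.91. By diet r was 0.94 in INT, 0.87 in CR, 0.99 in MF and 0.74 in C, so that mice high in one of these genes were high in the other under every diet.

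Elovl5 and Fads2 had r = 0.80 and rho = 0.77 (adjusted permutation p = 0.00018 and 0.00036; unadjusted 1e-05 and 2e-05), with r = 0.73 without the 2 farthest livers and 0.85 within diets and array sets. Elovl5 and Fads1 had r = 0.75 and rho = 0.76 (adjusted permutation p = 0.0006 and 0.00048; unadjusted 5e-05 and 4e-05), with r = 0.62 without the 2 farthest livers and 0.77 within diets and array sets. The 2 farthest were INT-fed replicate 3, high in all of these genes, and C-fed replicate 6, low in all of them. In each diet the sign was positive, with r for Elovl5 and Fads2 of 0.94 in INT, 0.64 in CR, 0.70 in MF and 0.83 in C.

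Elovl1 and Elovl3 ran opposite to each other, with r = −0.56 and rho = −0.57 (adjusted permutation p = 0.0366 and 0.0287; unadjusted 0.00407 and 0.00319). Without the 2 farthest livers r was −0.58, and it was negative in all 4 diets. The pair passed in 15 of 27 analyses that left out 1 liver, and not within diets and array sets (r = −0.55, adjusted permutation p = 0.136). The members that differed most between diets, Elovl3 and Elovl6, had r = 0.10 within diets, and Elovl6 and Scd1 had r = 0.28, neither passing.

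**Figure D3:**
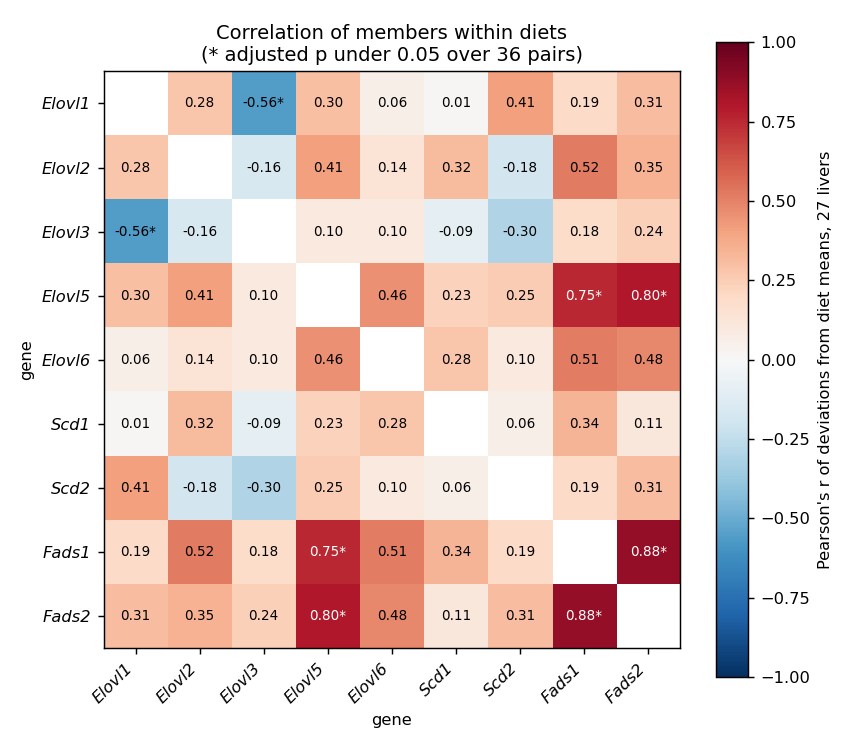
Pearson's r between members over 27 livers, computed on deviations of the log2 values from diet means; asterisks mark an adjusted permutation p under 0.05 over 36 pairs. Fads1, Fads2 and Elovl5 form the block of high positive values (0.75 to 0.88), and Elovl1 with Elovl3 is the only negative pair that passed (−0.56).

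**Figure D4:**
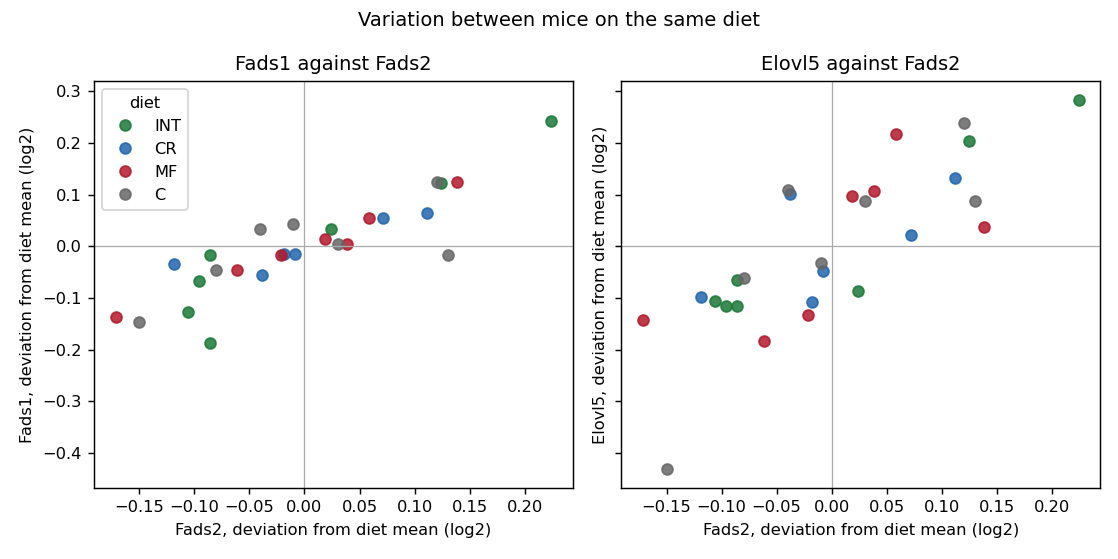
Deviation from the diet mean (log2) of Fads1 and of Elovl5, on the vertical axes, against that of Fads2 in 27 livers, coloured by diet. The points rise together with r = 0.88 and r = 0.80, and the lowest Elovl5 point is a C-fed liver.

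The enzymes that complete the elongation cycle or work beside the desaturases had smaller differences than Elovl3 and Elovl6. Of 18 such partners and further family members 13 were tested, and in INT against CR 2 were higher and 3 lower (median −0.06, against −0.001 over all genes). In CR against MF 3 were higher and 2 lower (median 0.01), and in CR against C 2 and 2 (median 0.08), while all-gene medians were −0.002 and 0.004. Over all genes 8.37% were higher and 6.62% lower in INT against CR. These shares were 8.57% and 11.2% in CR against MF, and 8.46% and 9.05% in CR against C. The partners higher in INT than in CR were the dehydratase Hacd3 (log2 fold change 0.31, SE 0.08, adjusted p = 0.0095) and the ketoacyl reductase Hsd17b12 (0.26, SE 0.09, adjusted p = 0.0397). Lower in INT were Fads3, which desaturates sphingoid bases (−0.37, SE 0.12, adjusted p = 0.0327), Degs1, the dihydroceramide desaturase (−0.28, SE 0.05, adjusted p = 0.000212), and Tecr, the last reductase of the cycle (−0.22, SE 0.07, adjusted p = 0.0379).

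Genes listed under fatty acid synthesis, the pathway that supplies palmitate to ELOVL6, were lower in INT-fed than in CR-fed livers in 10 of 11 cases. None was higher (median −1.01), and the shares of all genes were 6.62% lower and 8.37% higher. The list also holds genes that do not themselves make palmitate, such as Pnpla3. As many, 10 of 11, were higher in CR-fed than in MF-fed livers (median 0.95) and than in C-fed livers (median 0.89), with none lower. The all-gene shares higher in CR were 8.57% and 8.46%. In INT against CR the log2 fold change was −1.79 for Acly (SE 0.20), −1.70 for the lipid droplet lipase Pnpla3 (SE 0.22), −1.46 for Fasn (SE 0.15), −1.26 for Acaca (SE 0.15), −1.11 for Acacb (SE 0.20) and −1.01 for Me1, malic enzyme (SE 0.17), all with an adjusted p under 0.05. These genes shared the direction of Elovl6.

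**Figure D5:**
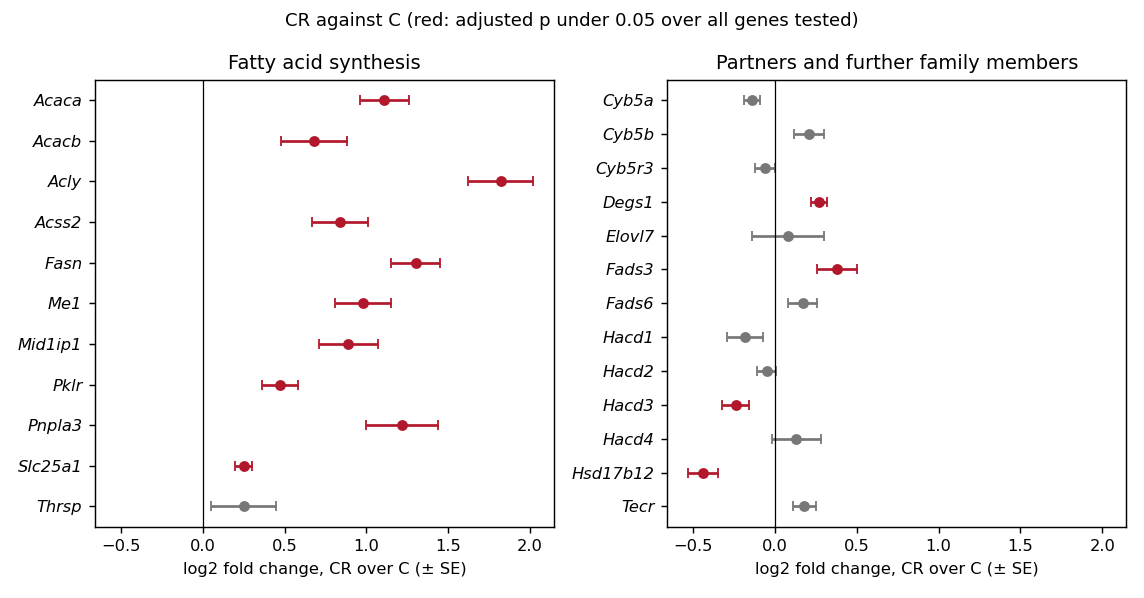
Log2 fold change, CR over C, with its SE, for 11 genes listed under fatty acid synthesis (left) and 13 tested elongation and desaturation partners (right). Red marks an adjusted p under 0.05 over 13603 genes. Of the synthesis genes 10 lie to the right with red marks, whereas the partners lie on both sides, 2 higher and 2 lower.

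Among regulators of these genes, 16 of 17 were tested, and the messenger of Srebf1, which encodes SREBP-1c, did not pass (CR against C 0.22, SE 0.20, adjusted p = 0.501). In CR against MF 3 regulators were higher and 3 lower (median 0.07), against 8.57% and 11.2% of all genes. Higher were Insig1, which retains the SREBP complex in the endoplasmic reticulum and is itself an SREBP target (1.21, SE 0.21, adjusted p = 0.00015), Scap, the SREBP escort (0.29, SE 0.09, adjusted p = 0.0272), and Usf2, an E-box factor (0.18, SE 0.06, adjusted p = 0.0424). Lower were Insig2 (−0.75, SE 0.27, adjusted p = 0.0494), Nfya, a subunit of the CCAAT factor (−0.42, SE 0.10, adjusted p = 0.00393), and Ppara, the fatty acid receptor (−0.37, SE 0.08, adjusted p = 0.00106). In INT against CR 1 was higher and 1 lower, and in CR against C 1 was higher and 2 lower (medians −0.03 and 0.10). Over all genes 15.0% and 17.5% passed in those comparisons, in either direction.

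Genes that use the chains passed in both directions, whereas those listed as shortening them passed mainly in 1 direction. Of the genes for acyl-CoA activation and phospholipid remodelling 8 of 11 were tested, with 1 higher and 2 lower in INT against CR, 2 and 2 in CR against MF, and 2 higher and 1 lower in CR against C (medians −0.11, 0.09 and 0.08). The all-gene shares that passed in either direction were 15.0%, 19.8% and 17.5%. In CR-fed against MF-fed livers the arachidonate-preferring Acsl4 was higher by 0.75 (SE 0.09, adjusted p = 9.85e-07) and Acsl5 by 0.32 (SE 0.09, adjusted p = 0.00862), whereas the acyltransferases Agpat3 (−0.24, SE 0.06, adjusted p = 0.00342) and Agpat2 (−0.23, SE 0.08, adjusted p = 0.0447) were lower. Of 12 genes listed under peroxisomal chain shortening, which include transporters such as Abcd3, 10 were tested. In INT against CR 5 were higher and none lower (median 0.27), against 8.37% and 6.62% of all genes. They were Acaa1a (0.55, SE 0.11), Scp2 (0.51, SE 0.07), Acaa1b (0.47, SE 0.16), Hsd17b4 (0.36, SE 0.08) and Acox3 (0.32, SE 0.08), all with an adjusted p under 0.05. In CR against MF 4 of the 10 were lower and none higher, and in CR against C 4 were lower and 1 higher (medians −0.25 and −0.23). The all-gene shares lower in CR were 11.2% and 9.05%, and those higher were 8.57% and 8.46%. No gene of these 5 lists passed in INT against MF, INT against C or MF against C.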

How the data were processed

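Liver RNA (100 ng) of 27 mice had been hybridised to Affymetrix Mouse Gene 1.1 ST arrays. The deposited values are log2 intensities, which the authors normalised with the Robust Multiarray Average method (RMA). The methods describe probe sets redefined by Entrez gene, whereas the deposited table has 35556 probe sets of the manufacturer's kind, of which 21218 name 1 gene; the 1881 that name several were not used. Where a gene had several probe sets, that of the highest mean was taken. Symbols of 18790 of 18820 genes were found in RefSeq (GRCm38.p6).

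Genes whose intensity exceeded 20 in 5 or more of the arrays were fitted by diet over all 27 livers with limma 3.58.1 (lmFit, contrasts.fit and eBayes) in R 4.3.3, and p-values were adjusted by Benjamini-Hochberg over the 13603 genes tested, with a threshold of 0.05. Errors of fold changes are standard errors from this fit. Tests were 2-sided. Correlations between members were computed in Python 3.11.15 (scipy 1.17.1, pandas 2.3.3, numpy 2.4.6), with 100000 permutations of mice within diets, and figures used matplotlib 3.10.9. The scripts were checked on simulated data. The number of arrays limits the precision.

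The 9 members and all lists were chosen with earlier results of these data known. All members are named, as are the 3 genes most correlated with each member called in at least 1 comparison. From each list up to 6 called genes of largest change are named in the comparison with most calls, INT against CR in the case of a tie; Srebf1, and Csf1r and Clec4f, were added after their values were seen. The alternatives tried were other intensity minima, median centring, cyclic loess, limma with trend and robust settings or with array weights, fits of only the groups compared, the array set, mouse number or replicate number as a block, each array set alone, the mean of all probe sets, the methods' test of diet with Tukey post-test, and leaving out each liver.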

Additional observations from a re-analysis of the deposited data

How the results depend on the processing

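The Elovl3 and Elovl6 differences in INT against CR, CR against MF and CR against C kept their direction and passed in all 27 fits without 1 liver and in the 15 other settings. In INT against CR, Elovl3 ranged from 3.25 to 3.75 and Elovl6 from −1.76 to −1.10. The count of members in INT against CR was 4, but 2 within replicates 1 to 4 and 2 within replicates 5 to 7, each of which holds fewer livers, and 2 to 5 when 1 liver was left out, with 2 without CR replicate 3, CR replicate 4, INT replicate 5 or INT replicate 6. It was 5, with Elovl2 added as lower in INT, in 7 of the 15 other settings: intensity above 20 on all arrays, mean intensity above 50, median centring, cyclic loess, trend and robust settings, array weights and the methods' test. The 2 called where the count was 2 were Elovl3 and Elovl6. Scd1 was also lost in INT against CR with only the groups compared (adjusted p = 0.107), and Scd2 without an intensity minimum (0.0564) and with mouse number as a block (0.0649). In INT against C, 0 members became 2, Fads1 and Fads2, both lower, under the methods' test with Tukey post-test, which adjusts within a gene but not over genes. The F test gave 2 members, but 4 with trend and robust settings, where Elovl2 and Scd1 were added, 3 with Elovl2 added under mean intensity above 50, median centring, cyclic loess or array weights, and 2 to 5 when 1 liver was left out, with 5 without INT replicate 3. Of the member pairs, 4 became 2 within replicates 1 to 4 and 3 to 5 when 1 liver was left out. The cause of these changes was not tested. Counts were 2 in CR against C, 2 to 4 in CR against MF, and 0 in INT against MF and MF against C, in every setting.

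The labels do not say that replicate numbers pair the mice, and same-numbered livers hardly deviated together (mean r 0.070, from −0.249 to 0.304, against −0.011 for other pairs). With the replicate block, 4 members were called in INT against CR, 3 in CR against MF, 2 in CR against C and 0 in the other comparisons, as without it.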

Other observations

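Male-biased and female-biased liver genes stood apart in CR-fed livers together with Elovl3, which is itself known as male-biased and was not counted in these lists. Of 19 male-biased genes 17 were tested, and in INT against CR 16 were higher and none lower (median 1.60), while in CR against MF and in CR against C 14 were lower and none higher (medians −1.34 and −1.38). The all-gene shares were 8.37% higher in INT against CR, 11.2% lower in CR against MF and 9.05% lower in CR against C. In INT against CR the log2 fold change was 6.91 for the steroid dehydrogenase Hsd3b5 (SE 0.93), 6.58 and 6.31 for the fatty acid hydroxylases Cyp4a12a (SE 0.29) and Cyp4a12b (SE 0.28), 5.47 for the organic anion transporter Slco1a1 (SE 0.54), 3.66 for Susd4 (SE 0.33) and 2.50 for Mup21 (SE 0.26). Of 18 female-biased genes 12 were tested, with 8 lower and none higher in INT against CR (median −2.15), 6 higher and none lower in CR against MF (median 1.44) and 8 higher and none lower in CR against C (median 1.89). Over all genes 6.62% were lower in INT against CR, 8.57% higher in CR against MF and 8.46% higher in CR against C. Lower in INT-fed than in CR-fed livers were the cytochromes P450 Cyp2b13 (−7.10, SE 0.45), Cyp2b9 (−4.61, SE 0.89) and Cyp2b10 (−3.49, SE 0.48), the organic anion transporters Slc22a26 (−4.30, SE 0.34) and Slc22a27 (−3.82, SE 0.41), and the hydroxyacid oxidase Hao2 (−2.21, SE 0.28). Paralogs within the Cyp4a12, Cyp2b, Slc22 and Mup families may share probe signal.

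Clock genes, among whose known outputs in mouse liver is Elovl3, passed in both directions. Of 18 such genes 15 were tested, with 3 higher and 2 lower in INT against CR (median −0.10), 4 higher and 1 lower in CR against MF (0.07) and 2 higher and 2 lower in CR against C (0.09). The all-gene shares that passed in either direction were 15.0%, 19.8% and 17.5%. In INT-fed against CR-fed livers Bhlhe41 (1.21, SE 0.21), Ciart (0.91, SE 0.26) and Hlf (0.45, SE 0.11) were higher, and Arntl (−1.30, SE 0.33) and Cry1 (−0.79, SE 0.18) were lower. No gene of these 3 lists passed in INT against MF, INT against C or MF against C. Each liver was sampled once, in the afternoon, and at that time only CR-fed mice were on a daily portion. A shift in the timing of a rhythm and a change in level therefore cannot be told apart.

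Marker lists of other cells were also set between diets. In INT against CR, 2 of 7 hepatocyte genes (Cps1 and Tat) and 1 of 4 cholangiocyte genes (Krt7) were lower, and of 2 erythroid genes Alas2 was higher and Slc4a1 lower. Over all genes the shares in that comparison were 8.37% higher and 6.62% lower. None of 3 adipocyte, 5 endothelial, 5 stellate, 5 lymphocyte, 2 neutrophil and 2 exocrine pancreas genes passed in that comparison. In CR against MF and in CR against C, Cps1, Tat, Krt7, Slc4a1, the macrophage genes Clec4f and Csf1r and the endothelial gene Kdr were higher and Alas2 was lower. The endothelial gene Lyve1 was also lower in CR against MF (−0.77, SE 0.25, adjusted p = 0.0316) and the cholangiocyte gene Sox9 higher in CR against C (0.29, SE 0.10, adjusted p = 0.0464). No stellate, lymphocyte, neutrophil or exocrine pancreas gene passed in these comparisons, and no marker passed in INT against MF, INT against C or MF against C.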
